A study of Mus musculus with 8 samples.

Results

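Immediate early genes and inducible heat shock genes were measured in single cells from mouse ependymomas. The 10 members were taken by symbol, and all 10 of them were found among the 33696 genes of the count matrices. They comprise 8 immediate early genes (Fos, Fosb, Jun, Junb, Egr1, Ier2, Dusp1 and Atf3) and 2 heat shock genes (Hspa1a and Hspa1b). Immediate early genes are switched on within minutes of a stimulus by transcription factors that are already present in the cell, so they need no new protein synthesis. Heat shock factor switches on the inducible Hsp70 genes when proteins misfold. Both groups are known to respond to enzymatic dissociation of tissue, and microglia, the resident macrophages of the brain, are known to be sensitive to it. Immediate early genes also respond to physiological signals such as antigen receptor ligation or neuronal activity, and a transcript count does not tell these sources apart.

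The cells came from mice with ependymoma, a brain tumor, named NestinCreERT2;Fus1;RFPTdT in the labels. In this model CreERT2, a tamoxifen-dependent recombinase under the Nestin promoter of neural progenitors, switches on a conditional ZFTA-RELA fusion, and every library compared here carries it. At 3 weeks of age the mice were allocated at random to mavrilimumab or to a control antibody (vehicle IgG), each given once into the cerebrospinal fluid. Mavrilimumab blocks the receptor for GM-CSF by its alpha subunit, and its dose was 5 mg per kg. The labels give an age of 6 to 8 weeks for every library, and the study describes these tumors as taken when they had recurred. Brain and tumor were dissociated mechanically and enzymatically, passed through Percoll and sorted after staining for CD45 and Ter119. There were 2 gene expression libraries per group. The study describes tumors, and in places experiments, as pooled within a group, but which of them went into each library, and when and in which order libraries were handled, is not given in the sources used here, so p-values measure the spread between these libraries, which may be technical.

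The libraries held 24354457 to 148657643 unique molecular identifiers (UMIs), and 984 to 26746 cells passed the filters of at least 1000 UMIs, 200 to 6000 genes and at most 10% mitochondrial UMIs. Libraries are named here by their labels only. The 3 T cell receptor (TCR) files analysed carry an inner name that contradicts the treatment label in 3 of 3 cases. Of 2749 cell barcodes in the TCR library labelled mavrilimumab 1, 2491 were cells of the expression library labelled mavrilimumab 2 and 2 were cells of the one labelled mavrilimumab 1. Of 5659 in the TCR library labelled mavrilimumab 2, 4867 were cells of the expression library labelled mavrilimumab 1. The TCR library labelled vehicle IgG 1 matched the expression library of the same label (182 of 193 barcodes), although its inner name is that of a mavrilimumab sample. Every direction between treatments below is therefore a direction between labels. Pairs of expression libraries shared between 0 and 60 cell barcodes.

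Cells were placed in 6 classes by counts of a few marker genes, none of them a member, and a cell that met more than 1 definition was set aside. There were 585 microglia in vehicle IgG 1, 360 in vehicle IgG 2, 207 in mavrilimumab 1 and 717 in mavrilimumab 2. CD8 T cells numbered 70, 1737, 1961 and 1845 in the same order. The other classes were CD4 T cells (99 to 1748 cells), natural killer (NK) cells, monocytes and neural cells. At least 20 cells were required for a library to enter a class, which removed vehicle IgG 1 from the last 3 and mavrilimumab 1 from the neural class. Neural cells made up most of vehicle IgG 2, with 15596 of its 26746 cells. They were 4 of 984 cells in vehicle IgG 1, 2 of 6412 in mavrilimumab 1 and 419 of 5490 in mavrilimumab 2. By markers that the rule did not use, the microglia were set apart from the other classes. In microglia, 7 microglial genes such as C1qa and Csf1r summed to 27803 to 39715 CPM (counts per 1000000 UMIs). The 6 CD4 T markers summed to 5.58 to 76.8 CPM there. Cells that also met a T cell definition had been set aside, so a low T cell sum was in part fixed beforehand. By summed markers, the CD4 T and neural classes were not set apart in this way. The CD4 T markers, most of them shared with other T cells, summed to more in CD8 T than in CD4 T cells of vehicle IgG 2 (2611 against 2144 CPM), mavrilimumab 1 (3622 against 3565 CPM) and mavrilimumab 2 (3315 against 2931 CPM). The neural markers summed to more in monocytes than in the neural class in vehicle IgG 2 (1976 against 1689 CPM) and in mavrilimumab 2 (3881 against 2352 CPM). In mavrilimumab 2, however, 4 of the 6 neural markers were at 0 in monocytes and 0 of 6 in the neural class. The remaining markers thus made up the sum of its monocytes. In vehicle IgG 2, 0 of 6 were at 0 in either class. The median depth of a microglial cell differed between libraries, with 14180 UMIs in vehicle IgG 1, 3163.5 in vehicle IgG 2, 5491 in mavrilimumab 1 and 10915 in mavrilimumab 2. CD8 T cells had a median of 14616, 2717, 4744 and 12488 UMIs. Levels are given below as CPM of the UMIs summed over the cells of a class in a library. Shares of cells are given after each cell was thinned to 1000 UMIs, so that depth does not set them.

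The sequences upstream of some members hold elements through which such genes are known to be switched on, and only the motifs named below were searched. Of the upstream sequences, 4 are printed here because they represent both groups. The mouse RefSeq table (build GRCm38.p6) held the 250 bases before the start of 8 of the 10 members. Fos and Dusp1 are shown for the immediate early group, with TGACG, the core of the cAMP response element, in capitals. Hspa1a and Hspa1b are shown for the heat shock group, with GAANNTTC, a pair of opposed heat shock element units, in capitals. All are written 5′ to 3′ on the strand of the gene, and coordinates count from 1.

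Fos, chr12:85473640-85473889, plus strand: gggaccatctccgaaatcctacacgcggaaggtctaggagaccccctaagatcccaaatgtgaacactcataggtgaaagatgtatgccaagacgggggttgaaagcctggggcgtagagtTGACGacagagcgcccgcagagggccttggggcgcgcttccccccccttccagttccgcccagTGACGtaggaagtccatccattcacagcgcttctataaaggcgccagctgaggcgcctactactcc

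Dusp1, chr17:26508473-26508722, minus strand: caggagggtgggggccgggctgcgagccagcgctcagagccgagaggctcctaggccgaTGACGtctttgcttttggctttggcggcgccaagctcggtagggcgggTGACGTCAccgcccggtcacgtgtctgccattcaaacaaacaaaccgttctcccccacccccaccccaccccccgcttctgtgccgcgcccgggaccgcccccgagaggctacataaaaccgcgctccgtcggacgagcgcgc

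Hspa1a, chr17:34972157-34972406, minus strand: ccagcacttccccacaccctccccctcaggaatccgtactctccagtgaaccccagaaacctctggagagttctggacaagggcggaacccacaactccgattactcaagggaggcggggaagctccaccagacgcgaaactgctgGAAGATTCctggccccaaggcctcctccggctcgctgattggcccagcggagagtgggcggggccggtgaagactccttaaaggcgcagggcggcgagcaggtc

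Hspa1b, chr17:34959239-34959488, minus strand: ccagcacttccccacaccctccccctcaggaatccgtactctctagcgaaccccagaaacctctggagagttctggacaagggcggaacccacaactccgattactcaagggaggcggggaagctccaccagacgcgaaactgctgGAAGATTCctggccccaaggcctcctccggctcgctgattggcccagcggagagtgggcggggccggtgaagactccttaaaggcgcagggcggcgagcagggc

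On either strand, TGACG was present upstream of 5 of the 8 members with a sequence (Atf3, Dusp1, Fos, Fosb and Junb), against 17.8% of 32851 upstream windows of the same length. The Fos window held it 129 and 66 bases before the start, and the full element TGACGTCA, found in 1.55% of windows, was present in Dusp1 alone, 143 bases before the start. GAANNTTC was present in 3 of 8 (Hspa1a, Hspa1b and Jun), against 6.69% of windows. TTCNNGAA, the other arrangement of such a pair, was in none of the 8, against 7.17%. TGANTCA, the site that Fos and Jun proteins bind, was in none of the 8 windows, against 6.75%. TATAAA, a core promoter motif, was in 1 of 8 (Fos), against 12.4%. These matches describe letters in a short window and do not show that a factor bound there. The windows of Hspa1a and Hspa1b were identical at 247 of 250 bases (98.8%). With Hspa1a first and positions counted from 1 at the 5′ end of the window, the differences were C44T, T47C and T249G. The first 50 bases of the transcribed part differed by 1 base, C276T. Reads from such near-identical genes may be split or dropped in counting, so the separate counts of Hspa1a and Hspa1b are uncertain and their sum is given as well.

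In microglia, the 8 immediate early members together reached 4838 CPM in the library labelled vehicle IgG 1, 11052 in vehicle IgG 2, 2934 in mavrilimumab 1 and 5519 in mavrilimumab 2. The most and least abundant libraries differed 3.77-fold. For 9 of the 10 members vehicle IgG 2 was the highest and mavrilimumab 1 the lowest library, an order that 14.6% of the 12452 genes tested in microglia shared. That order was picked after the values were seen, and Hspa1b was the exception, with its highest level in vehicle IgG 1. With cells that met several class definitions kept, only 3 of the 10 members had that order (Fos, Dusp1 and Atf3).

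Fos and Jun proteins pair to form the transcription factor AP-1. Fos was at 925 CPM in vehicle IgG 1 (95% exact Poisson interval 905 to 946, counting error only), 2725 in vehicle IgG 2 (2641 to 2812), 538 in mavrilimumab 1 (498 to 579) and 1014 in mavrilimumab 2 (992 to 1036). Jun was at 1356, 2957, 835 and 1690 CPM in the same order. For both genes vehicle IgG 2 stood above the other 3 libraries, and the range of the mavrilimumab libraries overlapped that of the vehicle libraries. The related subunits followed the same order of extremes: Junb was at 1026, 1691, 809 and 1270 CPM, and Fosb at 161, 218, 31.8 and 83.7 CPM. Of these 4 genes, Fosb alone was lower in both mavrilimumab libraries than in both vehicle libraries, as were 18.5% of all genes.

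Egr1, a zinc finger transcription factor, was at 614, 947, 326 and 499 CPM in microglia of vehicle IgG 1, vehicle IgG 2, mavrilimumab 1 and mavrilimumab 2. Atf3, a stress-responsive factor of the ATF/CREB family, was at 323, 888, 125 and 293 CPM. Both genes were lower in both mavrilimumab libraries than in either vehicle library, though for Atf3 the gap between vehicle IgG 1 and mavrilimumab 2 was small. Dusp1, a phosphatase that inactivates MAP kinases and so limits the same response, was at 231, 981, 104 and 312 CPM. Ier2, a short nuclear immediate early protein, was at 201, 645, 166 and 358 CPM. In these 2 genes vehicle IgG 1 lay between the mavrilimumab libraries, so the groups overlapped.

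The 2 heat shock members, which encode the inducible chaperone Hsp70, were lowest in mavrilimumab 1, where they had 4 (Hspa1a) and 3 (Hspa1b) UMIs, and the highest library was 32.6-fold above it for Hspa1a and 28.1-fold for Hspa1b. Hspa1a was at 70.5, 101, 3.10 and 37.5 CPM in microglia, and Hspa1b at 65.5, 48.2, 2.33 and 21.2 CPM, in the same order of libraries. Their sum was 136 CPM in vehicle IgG 1, 149 in vehicle IgG 2, 5.43 in mavrilimumab 1 and 58.7 in mavrilimumab 2, so that the vehicle libraries were close to each other and the mavrilimumab libraries differed 10.8-fold. The low value rests on 7 UMIs in 207 cells (95% exact Poisson interval 2.18 to 11.2 CPM, counting error only). The plot of levels by class sets these values beside those of the other 5 classes, which are described in turn.

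**Figure D1:**
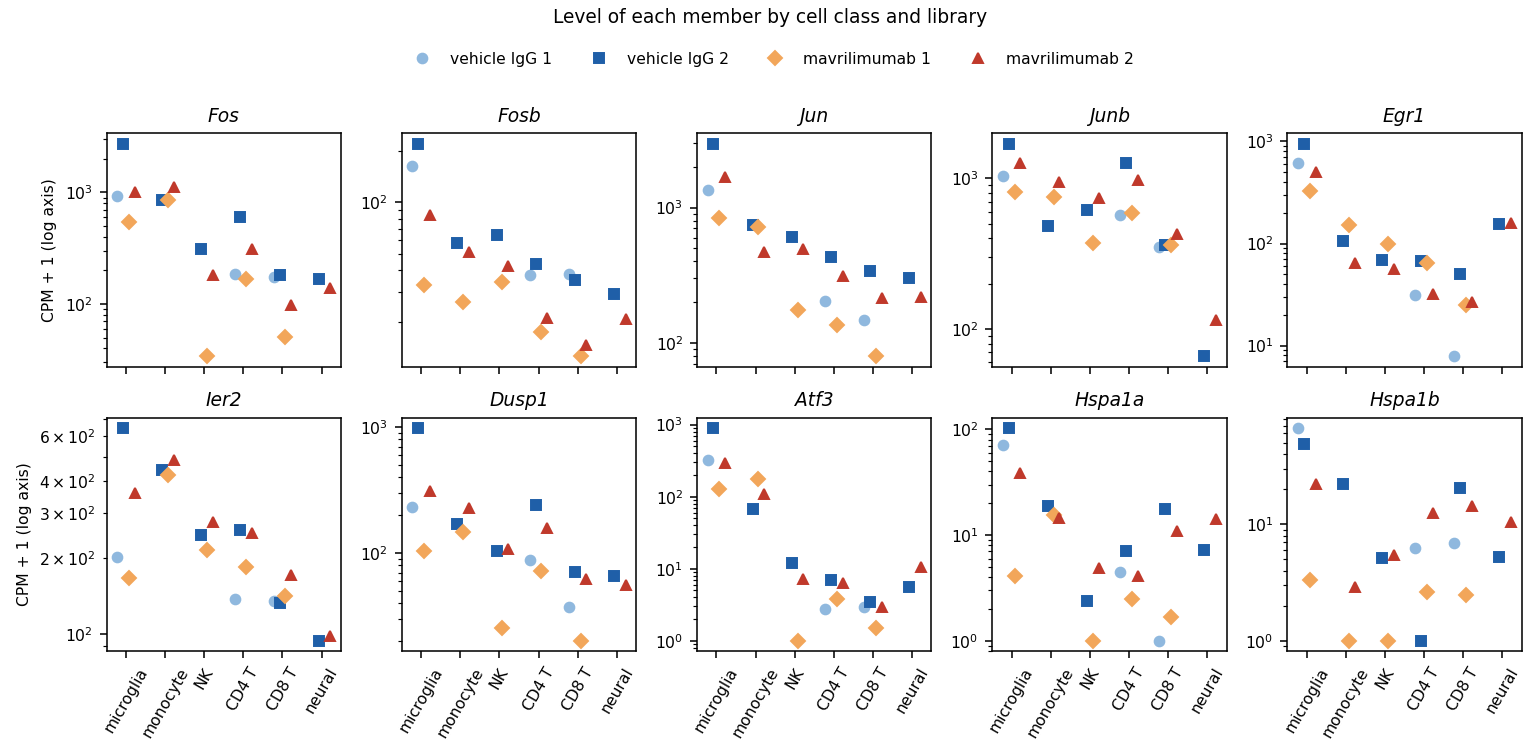
Level of each of the 10 members in the 6 cell classes, as CPM + 1 on a log axis that differs between panels; each symbol is 1 library, and classes with under 20 cells in a library have no symbol for it. In microglia, Fos ranged from 538 to 2725 CPM and was highest in the library labelled vehicle IgG 2, and summed Hspa1a and Hspa1b ranged from 5.43 to 149 CPM.

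The high values of vehicle IgG 2 depended on which cells were counted as microglia. That library had 291 further cells that met the microglia definition and another definition as well, against 3, 30 and 89 in vehicle IgG 1, mavrilimumab 1 and mavrilimumab 2, and these had been set aside. In the set-aside cells of vehicle IgG 2 the summed immediate early level was 1436 CPM and Fos was at 261 CPM. These 291 cells held 2451542 UMIs, against 1452287 in the 360 microglia kept. Of 320 cells of vehicle IgG 2 that met more than 1 definition, 296 met the neural one. Neural cells of that library had a summed immediate early level of 878 CPM. The part of neural RNA in the lower level of the set-aside cells was not tested. With all set-aside cells kept, the summed level was 4822 CPM in vehicle IgG 1, 5013 in vehicle IgG 2, 2692 in mavrilimumab 1 and 5078 in mavrilimumab 2, and vehicle IgG 2 was no longer the highest library. Fos then stood at 921, 1178, 475 and 932 CPM. Jun was then at 1352, 1365, 752 and 1526 CPM and Junb at 1021, 745, 739 and 1180 CPM, each highest in mavrilimumab 2, and Egr1, Fosb and Hspa1a were highest in vehicle IgG 1. Mavrilimumab 1 was the lowest library for all 10 members with these cells kept. Neural markers (6 genes) summed to 634 CPM in the microglia of vehicle IgG 2 against 23.4 to 124 in the other 3 libraries, and their part in the result was not tested.

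Free RNA was read from barcodes with 10 to 100 UMIs, which are empty droplets for the most part. In these, Fos was at 608 CPM in vehicle IgG 1, 89.5 in vehicle IgG 2, 242 in mavrilimumab 1 and 232 in mavrilimumab 2. The library with the highest Fos in microglia thus had the least Fos among its free RNA. That window held only 6703 barcodes in vehicle IgG 2, with 33 UMIs of Fos, against 113600 to 135305 barcodes in the other libraries. In barcodes of 100 to 300 UMIs, of which vehicle IgG 2 had 94465, Fos was at 479, 109, 172 and 189 CPM in the same order. From T cell genes found in microglia, free RNA was estimated at 1.97%, 52.7%, 3.35% and 3.99% of microglial UMIs in the same order. No doublet caller was run, and the part of doublets in the value for vehicle IgG 2 was not tested. After that share was subtracted, the immediate early sum was 4859, 19517, 2987 and 5672 CPM. The share and the subtracted sum of vehicle IgG 2 rest on its 6703 barcodes of 10 to 100 UMIs. Before subtraction, the 7 microglial markers summed to 27803 CPM in the microglia of vehicle IgG 2, against 31825 to 39715 CPM in the other libraries. Whether the share of vehicle IgG 2 was too high was not tested.

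Detection per cell was highest in vehicle IgG 2 and lowest in mavrilimumab 1 for Fos and Jun. At 1000 UMIs per cell, Fos was seen in 39.1% of microglia in vehicle IgG 1, 62.8% in vehicle IgG 2, 32.4% in mavrilimumab 1 and 35.8% in mavrilimumab 2 (72.6%, 76.9%, 56.5% and 60.1% unthinned). Jun was seen in 57.3%, 77.2%, 50.2% and 56.1% of thinned microglia. Junb was lowest in vehicle IgG 1 instead (42.4%, 66.4%, 46.9% and 54.0%), and Egr1 was about as low in mavrilimumab 2 as in mavrilimumab 1 (36.4%, 51.1%, 25.6% and 25.1%). By contrast, Fos was seen in 5.10% to 15.8% of thinned CD8 T cells. A UMI of Atf3 was seen in 11.6% to 43.3% of thinned microglia but in at most 1.43% of CD8 T cells, whose level of 0.494 to 2.50 CPM lay below the 5.79 to 124 CPM that the estimate of free RNA gave there. For Fos in CD8 T cells the estimate likewise exceeded the measured level in vehicle IgG 1 (208 against 174 CPM) and in mavrilimumab 1 (74.1 against 49.9 CPM). An estimate above the measured level is too high, so how much of the Atf3 and Fos of CD8 T cells was free RNA is not known.

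Members were often present together in the same microglial cell. At least 1 of the 8 immediate early members was seen in 85.0%, 90.6%, 79.7% and 78.9% of thinned microglia in vehicle IgG 1, vehicle IgG 2, mavrilimumab 1 and mavrilimumab 2. At least 5 of the 8 were seen in 12.5%, 48.1%, 8.21% and 15.6%. The high share with 5 or more was that of vehicle IgG 2, and it was not recomputed with the set-aside cells of that library. Fos was seen in 49.3% of microglia with a UMI of Jun and 25.6% of those without in vehicle IgG 1, in 73.7% and 25.6% in vehicle IgG 2, in 45.2% and 19.4% in mavrilimumab 1, and in 53.5% and 13.3% in mavrilimumab 2. In CD8 T cells, at least 3 of the 8 were seen in 4.29%, 6.91%, 1.73% and 5.75% of cells. These shares describe cells of 4 libraries and carry no test.

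**Figure D2:**
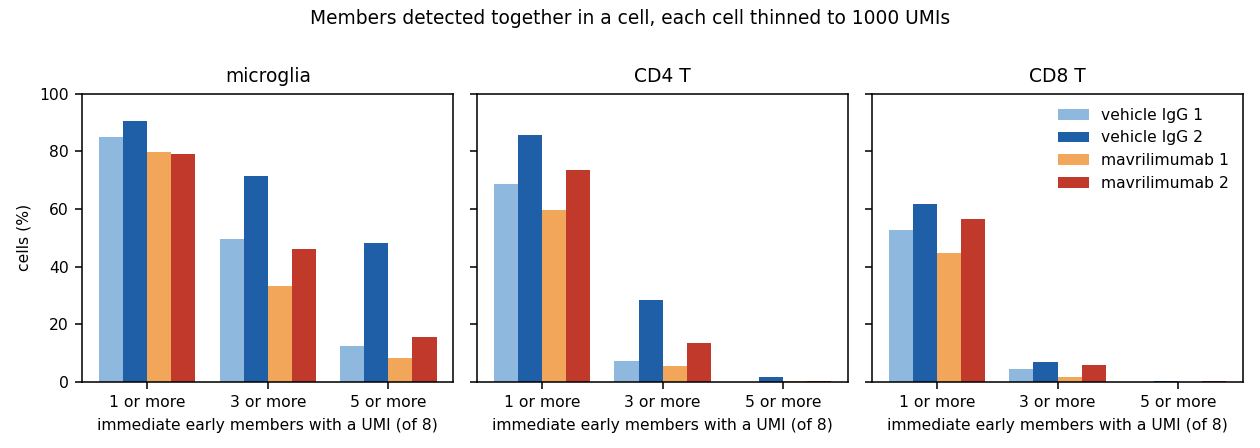
Share of cells, in percent, with a UMI of at least 1, 3 or 5 of the 8 immediate early members after each cell was thinned to 1000 UMIs, by class and library. In microglia, 5 or more were seen in 48.1% of cells of the library labelled vehicle IgG 2 and in 8.21% to 15.6% of cells of the other 3.

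The first comparison asked whether members differed between cell classes that had gone through the same handling. Counts of microglia and CD8 T cells of the same 4 libraries were compared with edgeR's quasi-likelihood test, with the library as a block. All 10 members were higher in microglia at a Benjamini-Hochberg adjusted p under 0.05, against 30.6% of all 12928 genes tested. Fos was 10.3-fold higher (log2 fold change 3.36 ± 0.26 SE, adjusted p = 0.00052). Its fold within a library was 5.32 in vehicle IgG 1, 15.2 in vehicle IgG 2, 10.8 in mavrilimumab 1 and 10.4 in mavrilimumab 2. The fold in vehicle IgG 2 rests on 2725 CPM of Fos in microglia, a level of 1178 CPM with cells of several classes kept. Jun was 9.48-fold higher (3.24 ± 0.15, adjusted p = 0.000153), with within-library folds of 7.86 to 10.6. Egr1 was 23.6-fold higher, with within-library folds of 89.7, 19.0, 13.7 and 19.2, but CD8 T cells of vehicle IgG 1 had 7 UMIs of it. Dusp1 was 7.38-fold higher, with within-library folds of 5.05 to 14.1. Atf3 had a fitted difference of 7.80 on the log2 scale, but its CD8 T cell counts were 2 to 51 UMIs per library. The free RNA estimate exceeded the measured level of Atf3 and of Egr1 in the CD8 T cells of all 4 libraries, so the size of both folds is uncertain. Ier2 was lowest at 2.16-fold (1.11 ± 0.32, adjusted p = 0.0306).

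The heat shock members were 6.62-fold (Hspa1a, 2.73 ± 0.61, adjusted p = 0.013) and 2.78-fold (Hspa1b, 1.48 ± 0.48, adjusted p = 0.0444) higher in microglia than in CD8 T cells. Within libraries, their sum was 23.2-fold, 4.10-fold, 2.50-fold and 2.51-fold higher in vehicle IgG 1, vehicle IgG 2, mavrilimumab 1 and mavrilimumab 2. The CD8 T cell sum of vehicle IgG 1 rests on 6 UMIs. In mavrilimumab 1 the sums rest on 7 UMIs in microglia and 22 in CD8 T cells, so the size of both folds is uncertain. Hspa1b lost its call without vehicle IgG 2, mavrilimumab 1 or mavrilimumab 2, with log2 differences of 1.35, 1.56 and 1.92 (adjusted p = 0.0638, 0.0876 and 0.0633). Ier2 lost it without vehicle IgG 1 or mavrilimumab 2, with differences of 1.24 and 1.10 (adjusted p = 0.0631 and 0.123). Hspa1b also lost it when cells of several classes were kept (adjusted p = 0.118). After subtraction of a free RNA share estimated from microglial genes in CD8 T cells, Fos (6.88, adjusted p = 0.0544) and Jun (6.94, adjusted p = 0.0722) lost their call with larger differences, and 6 members were called. The share of all genes called in that fit is not given here, so the count lacks a background.

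The 8 immediate early members had a median log2 difference of 3.06 and the 2 heat shock members one of 2.10, beside 0.06 over all genes. A wider list of 30 immediate early genes behaved less uniformly: of 25 tested, 13 were higher in microglia and 3 lower, with a median of 0.88. Rhob, a small GTPase, was higher (6.34 ± 0.40), as were Klf4, a Krüppel-like transcription factor (4.01 ± 0.20), and Zfp36, an RNA-binding protein that promotes mRNA decay (3.68 ± 0.23), while Dusp2, a MAP kinase phosphatase, was lower (-4.14 ± 0.19). Of 20 wider heat shock and chaperone genes, 4 were higher and 12 lower, with a median of -0.48, beside 30.6% of all genes higher and 25.7% lower. The gene with the smallest adjusted p was Dedd2 (-2.53 ± 0.20), which was lower. Hspa5, the chaperone of the endoplasmic reticulum (1.18 ± 0.13), Dnajb4, an Hsp40 co-chaperone (1.46 ± 0.17), and Bag3, a co-chaperone of Hsp70 (1.82 ± 0.24), were higher.

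Among lymphocytes, the level of the 8 immediate early members together was 682 to 1166 CPM in CD8 T cells, 1227 to 2912 in CD4 T cells and 947 to 2016 in NK cells. In CD8 T cells, Fos was at 174 CPM in vehicle IgG 1, 179 in vehicle IgG 2, 49.9 in mavrilimumab 1 and 97.2 in mavrilimumab 2, and Jun at 147, 340, 78.5 and 215 CPM. Junb was nearly level at 349, 359, 358 and 428 CPM. The vehicle and mavrilimumab libraries did not overlap for Fos, as for 17.6% of all genes that were lower in mavrilimumab, and they overlapped for Jun and Junb.

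CD4 T cells exceeded CD8 T cells of the same libraries in 4 members, against 6.09% of 11369 genes that were higher. Fos was at 184, 602, 166 and 310 CPM in CD4 T cells of vehicle IgG 1, vehicle IgG 2, mavrilimumab 1 and mavrilimumab 2, above the CD8 T cell value in each library, and 2.45-fold higher in the fit (1.29 ± 0.24, adjusted p = 0.00915). Dusp1 was 2.87-fold (adjusted p = 0.000101), Junb 2.03-fold (adjusted p = 0.0045) and Jun 1.37-fold higher (adjusted p = 0.0211). Jun, at 0.46 in the fit, lost its call without vehicle IgG 1 (0.47, adjusted p = 0.0724) and without mavrilimumab 1 (0.36, adjusted p = 0.110), and Fos without vehicle IgG 2 (1.18, adjusted p = 0.0504). Jun also lost it with cells thinned to 1000 UMIs (0.34, adjusted p = 0.144) and without the deepest cells (0.30, adjusted p = 0.0667). After subtraction of free RNA only Junb was called (Fos 3.35, adjusted p = 0.218), and the share of all genes called there is not given here. Egr1, Ier2, Fosb, Atf3 and the heat shock members did not pass the test. Of the wider immediate early list, 16 of 25 were higher and 3 lower, where 6.55% of all genes were lower, with a median of 0.80 beside 0.00 over all genes. Those with the smallest adjusted p were Nfkbia, an inhibitor of NF-kB (0.77 ± 0.10), Socs3, an inhibitor of cytokine signalling (1.50 ± 0.22), Nr4a1, an orphan nuclear receptor induced by antigen receptor signals (1.94 ± 0.28), and Zfp36 (1.12 ± 0.17). Of 19 wider heat shock genes tested, Bag3 (0.72 ± 0.20) was higher, while Hspe1 (-0.59 ± 0.09) and Hspd1 (-0.49 ± 0.09), the mitochondrial chaperonins, and Hspa8, the constitutive Hsc70 (-0.38 ± 0.08), were lower.

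NK cells, compared with CD8 T cells in 3 libraries, were higher in Fosb, Jun, Ier2 and Dusp1, against 5.16% of 11714 genes, and lower in Hspa1a and Hspa1b, against 6.28%. Jun was at 602 CPM in NK cells of vehicle IgG 2, 173 in mavrilimumab 1 and 491 in mavrilimumab 2, and 1.90-fold higher in the fit (0.93 ± 0.13, adjusted p = 0.00258). The summed heat shock members were at 5.46, 0 and 8.33 CPM in NK cells and at 36.4, 2.17 and 23.4 CPM in CD8 T cells of the same libraries. NK cells were thus lower in vehicle IgG 2 and mavrilimumab 2. Mavrilimumab 1 had 20 NK cells, in which a count of 0 allows up to 24.7 CPM (3 counts), so no difference could be detected there at this depth. The number of members called ran from 1 to 7 when a library was left out, with 3 without vehicle IgG 2, 7 without mavrilimumab 1 and 1 without mavrilimumab 2. Jun was the member that kept its call each time. The shares of all genes called in these fits are not given here, so the counts lack a background. Neither heat shock member was called by DESeq2 (adjusted p = 0.335 for Hspa1a and 0.0801 for Hspa1b) or without vehicle IgG 2 (adjusted p = 0.470 and 0.244). After subtraction of free RNA 0 members were called (Jun 2.41, adjusted p = 0.458), and the share of all genes called there is not given here. Of 25 wider immediate early genes, 5 were higher and 3 lower, among them Maff, a small Maf transcription factor (2.54 ± 0.29), and the kinase gene Sgk1 (-1.33 ± 0.22). Of 19 wider heat shock genes, 1 was higher (Dnajb4) and 4 lower, among them Hsph1, an Hsp110 co-chaperone (-0.71 ± 0.17).

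**Figure D3:**
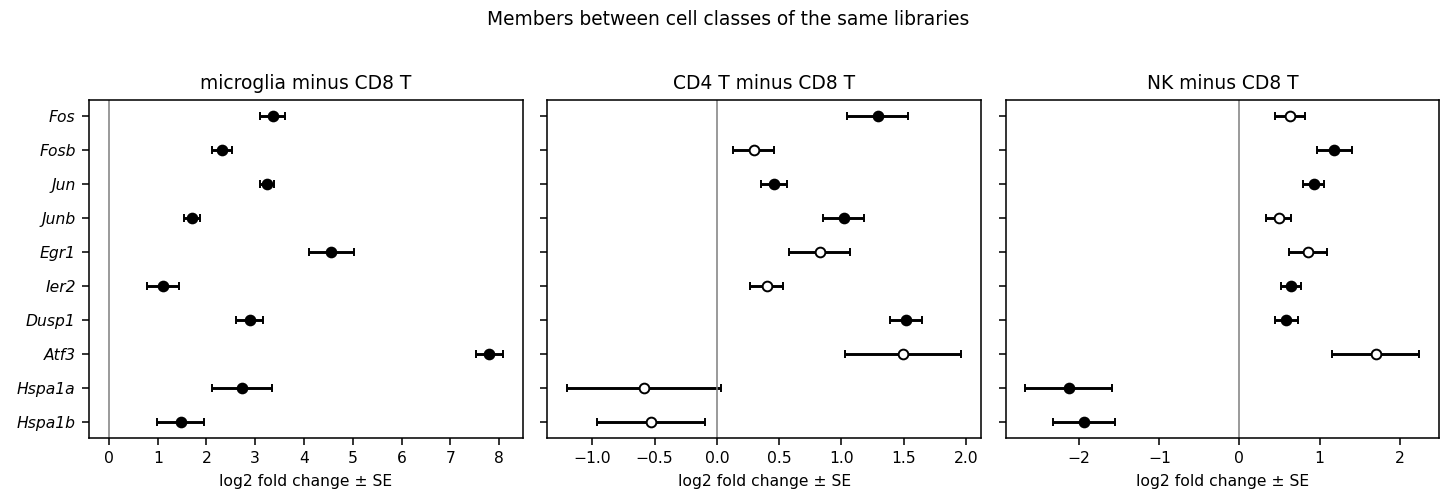
Log2 fold change of each member between cell classes of the same libraries, with the SE as bars, from edgeR with the library as a block; filled points have an adjusted p under 0.05 over all genes, and the axes differ. All 10 members were higher in microglia than in CD8 T cells, 4 were higher in CD4 T cells, and in NK cells 4 were higher and the 2 heat shock members lower.

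Monocytes, the blood-derived relatives of microglia, had an immediate early sum of 2924 CPM in vehicle IgG 2, 3232 in mavrilimumab 1 and 3473 in mavrilimumab 2. The highest and lowest of these 3 libraries differed 1.19-fold in monocytes and 3.77-fold in microglia, a contrast that was not tested. With cells of several classes kept, the microglial sums of these libraries were closer, at 5013, 2692 and 5078 CPM. Jun (-1.30 ± 0.33, adjusted p = 0.0271), Egr1 (-2.37 ± 0.39, adjusted p = 0.0045) and Hspa1b (-2.14 ± 0.59, adjusted p = 0.033) were lower in monocytes than in microglia, against 14.5% of 9885 genes. Fos was at 862, 849 and 1119 CPM in monocytes and did not pass the test (-0.19 ± 0.42, adjusted p = 0.78). There were 35 to 88 monocytes per library, and the count of members ran from 1 to 8 without 1 library: 3 without vehicle IgG 2, 8 without mavrilimumab 1 and 1 without mavrilimumab 2. The shares of all genes called in these fits are not given here, so the counts lack a background. Without vehicle IgG 2, Jun lost its call (-0.98, adjusted p = 0.0591) and Ier2 was called higher in monocytes (0.94, adjusted p = 0.023), while the members called without the other libraries were all lower. After subtraction of free RNA 0 were called (Egr1 -2.79, adjusted p = 0.0743), and the share of all genes called there is not given here. With cells of several classes kept, Jun (-0.74, adjusted p = 0.110) and Hspa1b (-1.60, adjusted p = 0.0537) lost their calls. Of 20 wider immediate early genes 3 were higher and 4 lower, among them Fosl2, an AP-1 subunit (2.47 ± 0.41), and Rhob (-3.74 ± 0.19), where 12.7% of all genes were higher. Of 19 wider heat shock genes 4 were higher and 1 lower, among them Hspa8 (0.92 ± 0.15) and Dnajb4 (-1.88 ± 0.33).

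Neural cells were compared in the 2 libraries that had enough of them. Their immediate early sum was 878 CPM in vehicle IgG 2 and 808 in mavrilimumab 2, where microglia were at 11052 and 5519 CPM. All 10 differences were negative (Fos -3.78 ± 0.45, adjusted p = 0.0671), but 0 members passed the edgeR test, which called 2.70% of 14591 genes and gave 4135 genes an unadjusted p under 0.05. Over all genes tested, 52.2% had a positive difference. DESeq2 called 10 members and limma-voom 9 on the same counts. The shares of all genes that these tools called are not given here, so both counts lack a background. By edgeR, 4 of 27 wider immediate early genes were lower (Sgk1, Btg2, Rhob and Tnfaip3), and 0 of 20 wider heat shock genes were called.

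The second comparison asked whether members differed between the treatment labels within a class. In microglia all 10 log2 differences of mavrilimumab against vehicle IgG were negative, from -0.32 (Junb) to -2.06 (Hspa1b), and none passed the test at 2 libraries against 2. The share of all 12452 genes called by edgeR was 0%, and 362 genes had an unadjusted p under 0.05, while DESeq2 and limma-voom called 0 members as well. Fosb (-1.62 ± 0.50 SE, adjusted p = 1.00), Atf3 (-1.46 ± 0.64) and Hspa1a (-1.89 ± 0.92) were among the members without overlap between groups. There were 5 such members, all lower in mavrilimumab (Atf3, Egr1, Fosb, Hspa1a and Hspa1b), against 18.5% of all genes. The median difference was -1.01 for the 8 immediate early members and -1.97 for the 2 heat shock members, beside -0.03 over all genes. Of the wider lists, 20 of 25 immediate early genes had a negative difference (median -0.44) and 17 of 20 heat shock genes (median -0.23), and none was called. Over all genes tested in microglia, 46.4% had a positive difference.

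The calls depended on the fit. Without vehicle IgG 1, Fos (-1.70, adjusted p = 0.0102), Fosb (-1.71, adjusted p = 0.0341), Egr1 (-1.08, adjusted p = 0.0329), Dusp1 (-2.09, adjusted p = 0.0248) and Atf3 (-1.95, adjusted p = 0.0146) were called lower, against 8.13% of 11736 genes. The remaining vehicle library, vehicle IgG 2, was then assumed to vary like the mavrilimumab libraries. Without each of the other libraries in turn no member was called. With the replicate number of the labels as a block, Fosb (-1.75, adjusted p = 0.024) and Hspa1a (-2.28, adjusted p = 0.0472) were called lower, against 1.41% of 12452 genes, although the labels do not say that a number marks a shared animal or day. The summed immediate early level differed by -0.86 on the log2 scale between the labels, with a spread within groups of 0.75 (SD), and the difference ran from -1.46 to -0.27 as each library was left out. With cells of several classes kept it was -0.41. The summed heat shock level differed by -2.87, with a spread within groups of 1.61 (SD), and its difference ran from -4.48 to -1.27. No test was run on either sum.

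In CD8 T cells none of the 10 members was called by edgeR, DESeq2 or limma-voom, where edgeR called 0% of 12273 genes and gave 550 an unadjusted p under 0.05. Fos (-1.19 ± 0.40, adjusted p = 0.915) and Fosb (-1.43 ± 0.25, adjusted p = 0.915) were lower in both mavrilimumab libraries than in either vehicle library, as were 17.6% of all genes. Junb (0.21 ± 0.23) and Ier2 (0.29 ± 0.22) had positive differences. Ier2, at 134 and 132 CPM in the vehicle libraries and 140 and 171 CPM in the mavrilimumab libraries, did not overlap in the opposite direction, as did 1725 of 12273 genes. The order with vehicle IgG 2 highest and mavrilimumab 1 lowest held for 5 of the 10 members, against 5.89% of genes. That order had been picked in microglia of these libraries after the values were seen. Among those 5, Fos was at 174 CPM in vehicle IgG 1 and 179 in vehicle IgG 2. Atf3 had 2, 15 and 5 UMIs in vehicle IgG 1, vehicle IgG 2 and mavrilimumab 1. Summed Hspa1a and Hspa1b were at 5.87 CPM in vehicle IgG 1, 36.4 in vehicle IgG 2, 2.17 in mavrilimumab 1 and 23.4 in mavrilimumab 2. The second library of each label was thus the higher one in CD8 T cells, while in microglia vehicle IgG 1 was close to vehicle IgG 2. Vehicle IgG 1 had 6 UMIs of these genes in 70 CD8 T cells.

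In CD4 T cells Hspa1a was too low to be tested, and 0 of the other 9 members were called by edgeR, DESeq2 or limma-voom, where edgeR called 0% of 10559 genes and gave 301 an unadjusted p under 0.05. Fosb (-1.03 ± 0.32, adjusted p = 1.00) alone was lower without overlap, against 19.1% of genes, and 4 of 9 members had the order of extremes described above, against 8.50%. Of the wider lists, 13 of 25 immediate early genes and 5 of 19 heat shock genes had a positive difference in CD4 T cells, and 9 of 26 and 7 of 19 in CD8 T cells. Over all genes tested, 48.8% had a positive difference in CD4 T cells and 48.1% in CD8 T cells. None of the genes of the wider lists was called in either class.

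**Figure D4:**
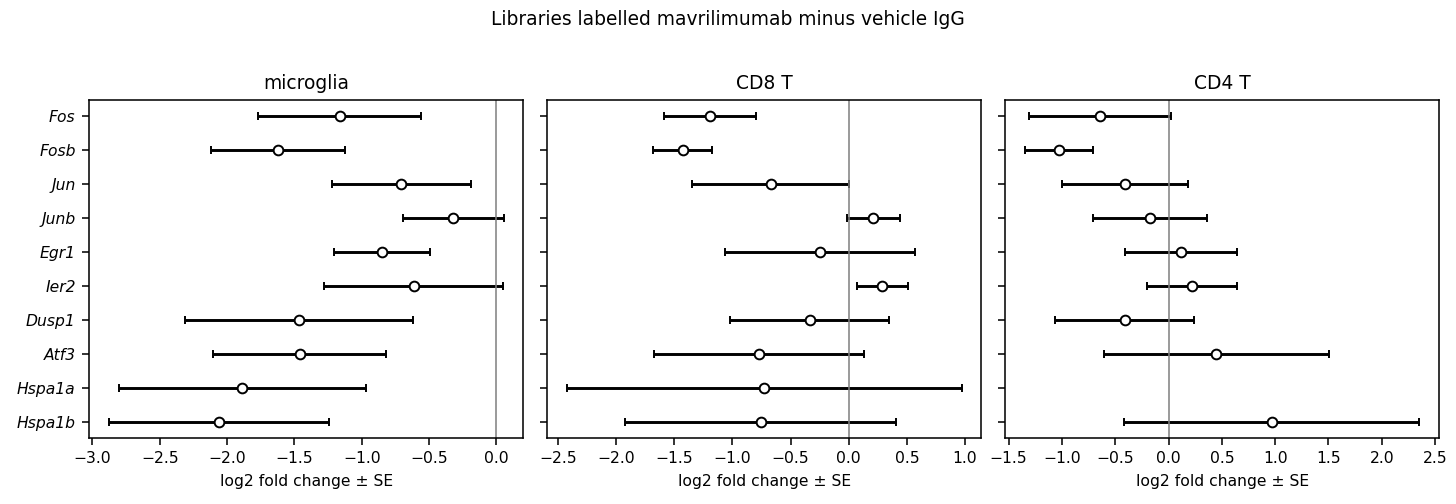
Log2 fold change of each member between the libraries labelled mavrilimumab and vehicle IgG (2 of each) within microglia, CD8 T cells and CD4 T cells, with the SE as bars; Hspa1a is absent from CD4 T cells because it was too low to test, and the axes differ. No point is filled, since no member had an adjusted p under 0.05; all 10 differences in microglia were negative.

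In NK cells, with 1 vehicle and 2 mavrilimumab libraries, Fos was called lower in mavrilimumab, against 10.0% of 11420 genes. It was at 310 CPM in vehicle IgG 2, 33.0 in mavrilimumab 1 and 183 in mavrilimumab 2 (-1.19 ± 0.38, adjusted p = 0.0175). Both mavrilimumab values were lower, but that of mavrilimumab 1 rests on 4 UMIs in 20 cells, and the call was lost by DESeq2 and limma-voom. The vehicle group had 1 library there and was assumed to vary like the other, so the call compares that library with 2 others and does not show a difference between the labels. With 1 of 8 tested members called, the count was also close to the share of all genes. In monocytes, also with 1 vehicle library, 0 of 8 tested members were called by edgeR, DESeq2 or limma-voom, where edgeR called 0.626% of 6708 genes and gave 828 an unadjusted p under 0.05. Of the 8 immediate early members, 6 had a positive difference in monocytes (median 0.22), where 51.1% of all genes tested did. The wider immediate early list had 19 of 21 positive there (median 0.77) and the wider heat shock list 0 of 17 (median -0.71). Neural cells could not be compared between labels. In NK cells and monocytes 0 genes of the wider lists were called.

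Whether the treatment difference of a member itself differed between microglia and CD8 T cells was tested as an interaction. None of the 10 members was called by edgeR, DESeq2 or limma-voom, where edgeR called 0% of 15253 genes and gave 624 an unadjusted p under 0.05. The median interaction was -0.55 for the immediate early members and 0.11 over all genes. Of the wider lists 0 genes were called. With cells thinned to 1000 UMIs, Ier2 was called (-1.90, adjusted p = 0.0028, against -0.74 unthinned), as were 0.123% of genes that were lower. Calls also changed when a vehicle library was left out. Without vehicle IgG 1, Dusp1 (-1.52, adjusted p = 0.0131) and Ier2 (-1.68, adjusted p = 0.0144) were called, against 1.57% of genes that were lower. Without vehicle IgG 2, Egr1 (-2.66, adjusted p = 0.0233), Hspa1a (adjusted p = 0.0118) and Hspa1b (adjusted p = 0.0204) were called, against 0.245% that were lower, and CD8 T cells of vehicle IgG 1 had 0 UMIs of Hspa1a and 6 of Hspa1b. No member was called in both cases. In each case the vehicle group had 1 library left and was assumed to vary like the mavrilimumab group, so these calls do not show a difference between the labels.

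The third comparison asked whether immediate early members were higher in the cells that had a heat shock transcript. Cells with at least 1 UMI of Hspa1a or Hspa1b were compared with cells without one in the same library and class, and these 2 genes were not read. In microglia, 148 of 585 cells in vehicle IgG 1, 64 of 360 in vehicle IgG 2 and 75 of 717 in mavrilimumab 2 were positive, and mavrilimumab 1 had too few (5). Positive cells were deeper in vehicle IgG 1 (a median of 18847 against 11999 UMIs) and in mavrilimumab 2 (13595 against 10707) but not in vehicle IgG 2 (2894.5 against 3298). Fos was at 1260 CPM in positive and 780 in negative cells of vehicle IgG 1, at 4344 and 2417 in vehicle IgG 2, and at 1803 and 902 in mavrilimumab 2. Jun was at 1703 and 1206, 4641 and 2636, and 2890 and 1521 CPM. The positive cells were higher in all 3 libraries for both genes.

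In the fit, Fos (0.82 ± 0.10, adjusted p = 0.00401), Fosb (0.89 ± 0.12, adjusted p = 0.00768) and Jun (0.72 ± 0.10, adjusted p = 0.0157) were higher in Hspa1-positive microglia, against 0.133% of 10523 genes that were higher. The other 5 immediate early members had positive differences of 0.21 to 0.62 that did not pass the test. Of the wider heat shock list, 5 of 20 were higher and none lower: Hsph1 (1.32 ± 0.16), Dnajb1, an Hsp40 co-chaperone (1.29 ± 0.15), Hsp90aa1, the inducible Hsp90 (0.91 ± 0.10), Dnaja1 (0.88 ± 0.10) and Dnajb4. Among 22 wider immediate early genes Klf4 was higher (1.14 ± 0.14). Without mavrilimumab 2 only Fosb kept its call among the members, with 0.73 for Fos (adjusted p = 0.109) and 0.62 for Jun (adjusted p = 0.366), and without vehicle IgG 2, Egr1 and Dusp1 were called in addition. With cells thinned to equal depth, Fosb lost its call (0.73, adjusted p = 0.444), while Fos and Jun kept theirs. Thinning also changed the groups, since the split was made again on the thinned counts. It left 54 positive cells in vehicle IgG 1 and 34 in vehicle IgG 2. After subtraction of free RNA the differences were 0.82 for Fos, 0.95 for Fosb and 0.72 for Jun, and none was called. With cells of several classes kept, Fos alone was called. The shares of all genes called under these alternatives are not given here.

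**Figure D5:**
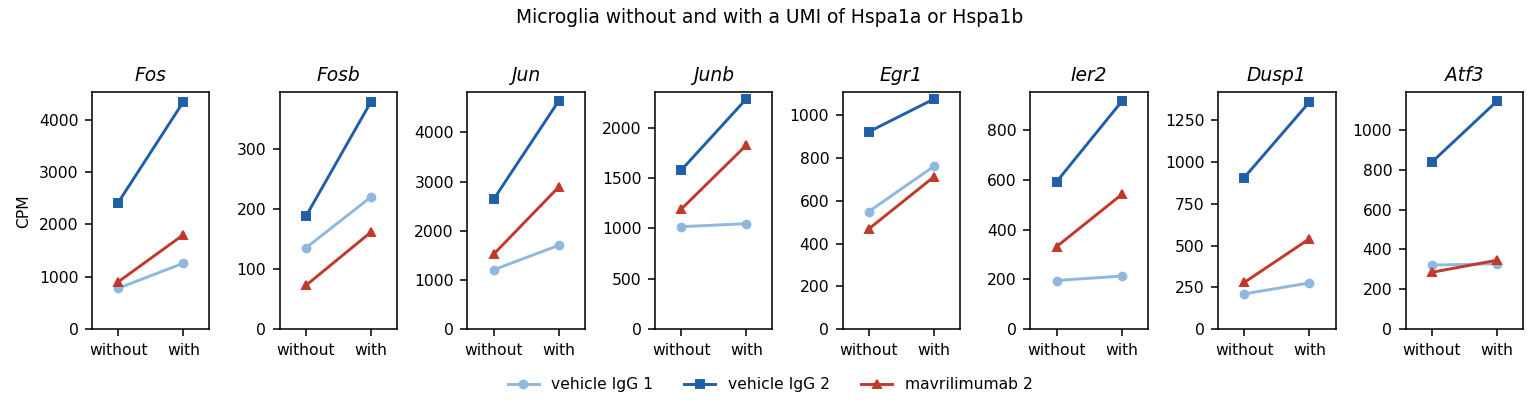
CPM of the 8 immediate early members in microglia without and with a UMI of Hspa1a or Hspa1b, each line joining the values of 1 library; the library labelled mavrilimumab 1 had 5 positive cells and is not shown. Fos, Fosb and Jun were higher in positive cells of all 3 libraries and passed the test, with Fos at 2417 and 4344 CPM in vehicle IgG 2.

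The same split was made in CD8 T cells. Positive cells numbered 107 of 1737 in vehicle IgG 2 and 104 of 1845 in mavrilimumab 2, the 2 libraries with enough. Jun was at 582 CPM in positive and 321 in negative cells of vehicle IgG 2 and at 231 and 214 CPM in mavrilimumab 2, and was called higher (0.45 ± 0.09, adjusted p = 0.00015), against 1.49% of 12137 genes. Junb was at 229 and 369 CPM and at 330 and 434 CPM, and was called lower (-0.51 ± 0.09, adjusted p = 9.08e-06), against 1.32%. The direction was the same in both libraries for each gene, and neither was called by DESeq2 (adjusted p = 0.486 for Jun and 0.115 for Junb) or after thinning. The split was made again on the thinned counts, which left 46 positive cells in vehicle IgG 2. Fos was not called (0.06 ± 0.13, adjusted p = 0.988). Of 19 wider heat shock genes, 6 were higher, led by Hsp90aa1 (0.77 ± 0.08), Hsp90ab1 (0.31 ± 0.06), Hsph1 (0.77 ± 0.16) and Hspa8 (0.27 ± 0.06), while Klf2, a quiescence factor of T cells, was lower (-0.56 ± 0.10).

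The fourth comparison set the members against the mitochondrial share of UMIs, a sign of cell quality. Microglia above the median share of their library were compared with those below it. All 10 differences were negative, but 0 passed the edgeR test, which called 0.29% of 10698 genes and gave 1057 an unadjusted p under 0.05. Over all genes tested, 46.9% had a positive difference. DESeq2 called 4 members and limma-voom 2, and the shares of all genes that these tools called are not given here. Hspa1a was at 56.1 CPM in high-share and 83.3 in low-share microglia of vehicle IgG 1, at 80.6 and 128 in vehicle IgG 2, at 2.80 and 3.48 in mavrilimumab 1 and at 20.6 and 57.7 in mavrilimumab 2 (-0.81 ± 0.17, adjusted p = 0.0777). Median mitochondrial shares of microglia were 1.61%, 2.06%, 1.47% and 1.28% in the same order. In CD8 T cells, Fos was higher in the high-share cells of each library, at 227 and 127 CPM in vehicle IgG 1, 211 and 145 in vehicle IgG 2, 55.5 and 44.4 in mavrilimumab 1 and 149 and 56.8 in mavrilimumab 2. The difference was called (0.81 ± 0.16, adjusted p = 0.0156), against 3.00% of 10951 genes, and was lost without vehicle IgG 1 (0.80, adjusted p = 0.0554) or mavrilimumab 2 (0.54, adjusted p = 0.072). Without vehicle IgG 1, Hspa1b was called lower instead, and the share of all genes called in that fit is not given here. Of 24 wider immediate early genes tested, 3 (Klf2, Socs3 and Ppp1r15a, a stress-induced regulator of translation) were higher and 1 (Dusp2) lower in high-share CD8 T cells, where 3.74% of all genes were lower.

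CD8 T cells with a UMI of Pdcd1, the gene of the inhibitory receptor PD-1, which antigen receptor signals induce, were compared with cells without one in 3 libraries. Fos was at 137 CPM in positive and 189 in negative cells of vehicle IgG 2, at 45.0 and 52.9 in mavrilimumab 1 and at 60.7 and 113 in mavrilimumab 2. The positive cells were lower in each, but the difference did not pass the edgeR test (-0.60 ± 0.13, adjusted p = 0.0938). No member did, where edgeR called 0.562% of 11734 genes and gave 1746 an unadjusted p under 0.05. DESeq2 called 1 member (Junb) and limma-voom 2 (Fos and Junb), and the shares of all genes that these tools called are not given here. With cells thinned to 1000 UMIs and split again on the thinned counts, edgeR called Fos lower (-1.04, adjusted p = 0.0266), as were 0.306% of genes. Without the deepest cells edgeR called it lower too (-0.88, adjusted p = 0.0143), and the share of all genes called there is not given here. Of 24 wider immediate early genes Klf2 was lower (-1.52 ± 0.15) and of 19 wider heat shock genes none was called.

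Across 20 sums of a class in a library, the 10 genes whose deviations from their class mean followed those of the 8 immediate early members most closely among 7833 genes were ranked by Pearson's r as a description. Klf4, itself an immediate early gene of the wider list, came first (r = 0.915), followed by Cdkn1c, a cyclin-dependent kinase inhibitor (0.896), Gnas, a G protein subunit (0.887), Dab2ip (0.884), Pde4b, a cAMP phosphodiesterase (0.873), Ifrd1 (0.869), A330069K06Rik (0.854), Arhgef4 (0.852), Sec61g (0.848) and Furin, a protease (0.844). The points share libraries, depth and handling, so they are not independent.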

How the data were processed

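Droplet 5′ gene expression libraries of sorted brain and tumor cells were analysed, 2 labelled vehicle IgG and 2 labelled mavrilimumab. The deposited matrices hold UMI counts per gene and barcode, not normalized and not filtered for cells, which the authors produced with Cell Ranger (the submitters' processing notes name versions 7 and 7.1.0, Scanpy 1.8.2 and mm10, and a file header names 9.0.1). The deposited TCR files, of which 3 were analysed, were used only for their barcodes and inner sample names, not for their contig counts.

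Cells, as defined in the report, were classed by UMIs: CD8 T (Cd3e, Cd8a and Cd8b1), CD4 T (Cd3e and Cd4 without Cd8a or Cd8b1), NK (Ncr1 and Klrb1c without Cd3e), microglia (P2ry12 and Tmem119), monocyte (Ccr2, Ly6c2 and Lyz2 without Cd3e) and neural (Nnat and Mdk without Ptprc). No doublet caller was run, and cells above a depth limit were left out as an alternative. Counts were summed per library and class and tested with edgeR 4.0.16 in R 4.3.3 (TMM, filterByExpr, quasi-likelihood test, Benjamini-Hochberg FDR of 0.05 over all genes tested). Class and cell-state comparisons had the library as a block. The quasi-likelihood test reports no SE, so the SE shown was derived from its log2 fold change, divided by the square root of its F statistic. Alternatives were DESeq2 1.42.0, limma-voom (limma 3.58.1), RLE normalization, no filter, 500 or 2000 UMIs, a mitochondrial limit of 5%, cells of several classes kept, thinning, subtraction of free RNA and leaving out each library. Scripts were tested on simulated data. Shares and sums used Python 3.11.15, numpy 2.4.6, pandas 2.3.3 and scipy 1.17.1. Members were named in every comparison. Of the wider lists, up to 4 called genes with the smallest FDR are named, and others only where a count turned on them. The 10 genes most like the members have a mean of at least 20 CPM. Members, classes and lists were chosen with earlier results of these data known. Alternatives that need an item withheld here are not reported.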

Additional observations from a re-analysis of the deposited data

How the results depend on the processing

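Of 2152 member values recomputed under an alternative, 1918 kept their side of the threshold, 91 lost a call, 143 gained one and 0 calls reversed, while 98 values without a call changed sign. The cause of these changes was not tested. The alternative with free RNA from barcodes of 100 to 300 UMIs was chosen after seeing the data. The free RNA share of CD8 T cells was estimated at 20.5% to 53.4% from barcodes of 10 to 100 UMIs and at 16.9% to 53.1% from those of 100 to 300 UMIs, and the former exceeded the measured level in 18 of 40 member values of CD8 T cells, 10 of 40 of CD4 T cells and 6 of 30 of NK cells. In CD8 T cells it did so for 8 members in vehicle IgG 1 (Egr1 at 164 against 6.84 CPM) and 6 in mavrilimumab 1, and for Egr1 and Atf3 in all 4 libraries. The latter did so in 9 of 40, 8 of 40 and 6 of 30. Both subtractions were therefore too large for these member values, and how far they were off for the other values was not tested. A call lost after a subtraction thus does not show whether the difference was smaller.

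Counts of members called that moved by over 1.5 times are given by comparison. The shares of all genes called under these alternatives are not given beside them, so the counts are not read as a result about the members. Fos in NK cells between labels was lost (0 members) under DESeq2, limma-voom, 500 UMIs, thinning and after subtraction of free RNA from 100 to 300 UMIs. Microglia against CD8 T gave 6 after free RNA subtraction. CD4 T against CD8 T gave 1 after that subtraction, 2 with 100 to 300 UMIs and 7 by limma-voom. NK against CD8 T gave 3 by DESeq2 and thinned, 0 and 1 after the 2 subtractions, and 10 unfiltered. Monocyte against microglia gave 0 after both subtractions, 1 with cells of several classes kept, 6 by limma-voom, 8 unfiltered and 5 thinned or without the deepest cells. Neural against microglia gave 10 by DESeq2 and without the deepest cells, 9 by limma-voom, unfiltered and thinned, and 1 with RLE. Hspa1-positive CD8 T cells gave 0 by DESeq2, thinned and after both subtractions. Hspa1-positive microglia gave 0 after both subtractions, 1 with cells of several classes kept, and 5 by limma-voom and unfiltered. Pdcd1-positive CD8 T cells gave 1 by DESeq2, thinned and without the deepest cells, 2 by limma-voom and 3 unfiltered. The mitochondrial split in CD8 T cells gave 0 after both subtractions, 3 by limma-voom and without the deepest cells, and 2 unfiltered and thinned. In microglia it gave 4 by DESeq2, 2 by limma-voom and thinned, and 5 unfiltered. The interaction gave 1 (Ier2) thinned.

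The log2 fold of the highest over the lowest library, for the immediate early sum, was 0.77 in CD8 T cells (1.96 and 1.27 after the 2 subtractions), 1.25 in CD4 T cells (2.51 and 2.03) and 1.91 in microglia (2.71 and 2.97, and 0.92 with cells of several classes kept). For the heat shock sum it was 3.56 in CD8 T cells (5.94 after subtraction) and 1.93 in CD4 T cells (3.74), where the difference between labels was 1.05 after subtraction and -0.05 before.

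Leaving out each library gave 0 to 5 members for the labels in microglia, 8 to 9 for microglia against CD8 T, 3 to 5 for CD4 T against CD8 T, 1 to 7 for NK against CD8 T, 1 to 8 for monocytes, 0 to 3 for the interaction, 1 to 5 for Hspa1-positive microglia and 0 to 1 for the mitochondrial split in CD8 T cells. It gave 0 for the labels in CD8 T and CD4 T cells, for Pdcd1 and for the mitochondrial split in microglia. Shares of all genes called are not given beside these counts. The fold of extremes ran from 0.40 to 0.77 in CD8 T, 0.75 to 1.25 in CD4 T and 0.91 to 1.91 in microglia for the immediate early sum, and from 2.45 to 3.56, 1.15 to 1.93 and 1.33 to 4.55 for the heat shock sum. The difference between labels ran from -0.58 to -0.0033, -0.87 to 0.34 and -1.46 to -0.27 for the former, and from -2.34 to 0.61, -1.01 to 0.92 and -4.48 to -1.27 for the latter.

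The labels number the libraries 1 and 2 in each group, but they do not say that a number marks a shared day or animal, and the study describes tumors as pooled within a group. Deviations of same-numbered libraries correlated across genes at 0.42 in CD8 T cells, 0.26 in CD4 T cells and 0.52 in microglia, from 2 pairs. With the replicate number as a block, 2 members (Fosb and Hspa1a) were called lower in mavrilimumab in microglia, as were 1.41% of genes, and 0 in CD8 T and CD4 T cells.

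NK cells between labels gave no value with 2000 UMIs, a mitochondrial limit of 5%, without the deepest cells, with a library left out or with the block, nor monocytes with a library left out or with the block. Low counts limit the heat shock members, and 2 libraries per label limit every comparison between labels.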
